A study of Homo sapiens with 9 samples.

Results

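The alpha-arrestins are a family of adaptor proteins with the arrestin fold. The genes described here are ARRDC1, ARRDC2, ARRDC3, ARRDC4 and TXNIP, listed by symbol because ARRDC3 stood over 3-fold higher with both siRNAs of the study. They were found as rows of the deposited expression table whose Ensembl identifier, without its version, belongs to one of these symbols. Of the 5 genes listed, 4 had such a row among the 15354 rows, and all 4 passed the filter on low values that left 13893 genes for testing. TXNIP is annotated on the plus strand at chr1:145438490-145442635 (GRCh37). No row was matched to its current identifier, so its level was not analysed here. The table carries identifiers of an older annotation, 483 of its rows were matched to no symbol, and whether one of these is an older identifier of TXNIP could not be settled.

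An alpha-arrestin binds a membrane protein through its arrestin fold and a HECT ubiquitin ligase of the NEDD4 family through short proline-rich motifs in its tail. The ligase then attaches ubiquitin to the cargo, which is taken up into endosomes and sorted by the ESCRT complexes towards the lysosome. ARRDC3 is known as such an adaptor for the integrin chain ITGB4. ARRDC1 recruits the ESCRT protein TSG101 to the cell surface, where small vesicles are released. TXNIP and its close relative ARRDC4 restrain glucose uptake and are induced by glucose through the transcription factors MondoA (gene MLXIP) and ChREBP (gene MLXIPL), and TXNIP also binds thioredoxin.

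The measurements were RNA-seq profiles of HCT116, a human cell line established from a colorectal carcinoma, 36 h after transfection with siRNA at 25 nM. The 9 libraries form 3 groups of 3 biological replicates. One group received a commercial non-targeting control siRNA, and the others received siRNA A or siRNA B, both directed against the long non-coding RNA SNHG5. All groups carried a transfected siRNA, and no untransfected cells were among these libraries.

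Library totals ran from 15566530 to 23277549 reads. SNHG5, the intended target, went against the labels. Its level, in CPM (reads of a gene relative to the library total), was 35.6, 26.3 and 28.6 in the control libraries. Under the siRNA A label it was 63.9, 50.0 and 61.5, and under the siRNA B label 47.8, 47.7 and 45.2. It was higher than control under both labels, by a log2 difference of 1.29 for siRNA A (limma, adjusted p = 1.86e-05) and 0.83 for siRNA B (limma, adjusted p = 5.90e-04). SNHG5 overlaps PKMP3 and an unnamed gene on its own strand, to which no row was matched. Because of the direction of SNHG5, the groups are called the libraries labelled siRNA A and siRNA B, and every direction below is a direction between labels. All 5 epithelial markers were detected. Their summed level ran from 2055 to 2143 CPM in control, from 2773 to 3413 CPM in libraries labelled siRNA A and from 2355 to 2407 CPM in those labelled siRNA B. The sum is mostly keratin and hides opposite directions. EPCAM stood at 186 to 214 CPM in control, at 94.6 to 116 under siRNA A and at 155 to 172 under siRNA B. CDH1 stood at 37.3 to 48.1 CPM in control, at 30.0 to 38.5 under siRNA A and at 28.2 to 32.1 under siRNA B. Its siRNA A range overlapped control. The part of these markers in the results was not tested. Of 4 fibroblast, 4 immune and 3 endothelial markers, COL1A1, PDGFRB (at most 0.337 CPM) and CD14 (at most 0.556 CPM) had a row. COL1A1 stood at 18.3 to 19.5 CPM in control, at 9.44 to 12.3 under siRNA A and at 8.55 to 9.40 under siRNA B.

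Values below are CPM after scaling each library by its TMM factor, a correction for composition with a group mean of 1.14 (control), 0.886 (siRNA A) or 0.988 (siRNA B). A log2 difference is that of fitted means of log2(scaled CPM + 1). It understates the change of low genes. On this scale the median gene differed from control by a log2 value of −0.02 under siRNA A and 0.0043 under siRNA B. These medians became −0.34 and −0.18 when the library totals alone were used. A gene was called when its adjusted p in limma, a linear model fitted across all genes, was under 0.05. Both comparisons with control share the same 3 control libraries. Since ARRDC3 was chosen on these comparisons, the values of the members against control are given as a description, and p-values of members are given only between the siRNAs. Where a member is said to be called against control, this is the outcome of the fit over all genes and supports nothing about the members.

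ARRDC3 (ENSG00000113369.4) lies on the minus strand at chr5:90664448-90679134 (GRCh37). The 250 bases before its first RefSeq start are shown because ARRDC3 was the member with the largest difference from control. They lie at chr5:90679135-90679384 on the minus strand and hold no annotated exon. The same stretch is shown for ARRDC4, the glucose-regulated member that had a row, at chr15:98503683-98503932 on the plus strand. Capitals mark matches on either strand to 4 motifs picked with these sequences in view, namely the E-box CACGTG, the CCAAT box CCAAT, the FOXO element GTAAACA and the AP-1 element TGACTCA.
ARRDC3: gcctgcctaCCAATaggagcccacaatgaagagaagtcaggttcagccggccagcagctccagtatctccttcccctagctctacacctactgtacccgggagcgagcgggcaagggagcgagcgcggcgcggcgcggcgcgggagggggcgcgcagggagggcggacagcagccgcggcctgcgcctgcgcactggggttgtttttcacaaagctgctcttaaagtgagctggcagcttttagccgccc
ARRDC4: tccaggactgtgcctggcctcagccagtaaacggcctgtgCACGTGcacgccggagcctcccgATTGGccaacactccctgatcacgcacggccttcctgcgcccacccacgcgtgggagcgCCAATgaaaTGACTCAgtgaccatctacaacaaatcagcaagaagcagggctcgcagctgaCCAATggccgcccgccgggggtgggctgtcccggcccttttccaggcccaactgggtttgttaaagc

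Both stretches are rich in G and C, at 65.6% for ARRDC3 and 62.8% for ARRDC4. The ARRDC4 stretch held an E-box, the core letters bound by MondoA and ChREBP with their partner MLX, 210 bases before the start. It also held CCAAT matches at 187, 128 and 67 bases and an AP-1 match at 119 bases before the start. In the ARRDC3 stretch the only match was a CCAAT box 241 bases before the start. A second RefSeq start of ARRDC3 inside the gene was preceded at 29 bases by a FOXO element. TXNIP, the other member induced by glucose, had no match to CACGTG in either of its RefSeq windows. Only these exact letters were searched, so looser forms of the element bound by MondoA and ChREBP would be missed. Its first window held CCAAT matches at 140 and 105 bases and a FOXO element at 124 bases before the start. Of 35116 windows of 250 bases before RefSeq starts, 6.34% held the E-box, 32.0% the CCAAT box, 2.98% the FOXO element and 4.203% the AP-1 element. These are matches of letters in the RefSeq windows, not measured sites.

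ARRDC3 was high in every library labelled siRNA A or siRNA B. It stood at 36.1, 35.6 and 46.6 scaled CPM in the control libraries. In those labelled siRNA A it stood at 101, 156 and 115. In those labelled siRNA B it stood at 159, 213 and 134. Every labelled library lay above all 3 controls, while the ranges of the labelled groups overlapped each other. The means were 39.4 ± 6.22 (SD, n = 3), 124 ± 28.7 (SD, n = 3) and 169 ± 40.6 (SD, n = 3). Replicate 2 was the highest of both labelled groups.

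The fitted difference of ARRDC3 from control was 1.62 (SE 0.19) on the log2 scale for siRNA A, a fold of 3.07, and 2.05 (SE 0.19) for siRNA B, a fold of 4.15. By size of the upward difference it ranked 56th of 13893 genes with siRNA A and 7th with siRNA B. Over 3-fold with both siRNAs and called in both was met by 11 genes, or 0.0792% of those tested, ARRDC3 among them, which restates how it was chosen. With siRNA A it stood close to that limit. The fitted value was under 3-fold without siRNA A replicate 2 (1.44), control replicate 2 (1.54) or control replicate 1 (1.56). The same count of genes was 6 to 13 in the other limma fits, 27 with edgeR and 31 with DESeq2 on the recovered reads. The nearest other members below that fold were ARRDC2 at 1.23-fold with siRNA A and ARRDC4 at 1.27-fold with siRNA B. With the library totals alone the ARRDC3 differences were 1.25 (siRNA A) and 1.85 (siRNA B), against a median of all genes of −0.34 and −0.18, so with siRNA A it was 2.39-fold. In bulk RNA, more cells that express a gene and more of its RNA per cell cannot be told apart. ARRDC3 overlaps the antisense gene ARRDC3-AS1, to which no row was matched. The use of strand in counting was not given in the sources used here, so reads of this pair cannot be told apart.

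**Figure D1:**
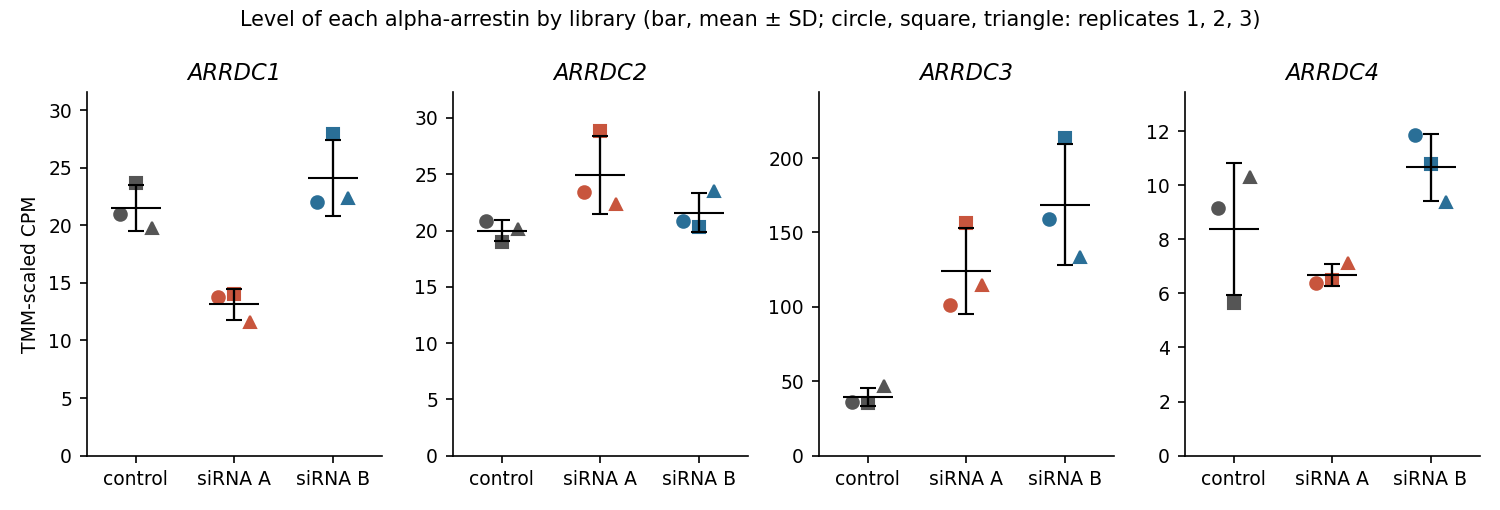
TMM-scaled CPM of ARRDC1, ARRDC2, ARRDC3 and ARRDC4 in each library of the control group and of the groups labelled siRNA A and siRNA B. Symbols are replicates and bars are the mean ± SD of 3, on linear axes that start at 0. ARRDC3 lies at 35.6 to 46.6 in control and at 101 to 213 in the labelled libraries, and ARRDC1 is lowest in the libraries labelled siRNA A.

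ARRDC1 (ENSG00000197070.9), the vesicle-release member, lies on the plus strand at chr9:140500137-140509812 (GRCh37). It stood at 20.98, 23.7 and 19.8 scaled CPM in control and at 13.8, 14.1 and 11.6 in libraries labelled siRNA A. In those labelled siRNA B it stood at 22.0, 27.9 and 22.4. The siRNA A group lay below every library of the other groups, and the siRNA B group overlapped control. The means were 21.5 ± 1.99, 13.1 ± 1.36 and 24.1 ± 3.30 (SD, n = 3 each).

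Against control, the log2 difference of ARRDC1 was −0.67 (SE 0.13) under siRNA A and 0.15 (SE 0.13) under siRNA B. With totals alone these were −1.02 and −0.050, so the direction with siRNA B depends on the scaling. Its 3′ end overlaps the antisense gene ARRDC1-AS1, which had a row of its own. Mean levels of ARRDC1-AS1 were 4.03, 2.997 and 3.53 scaled CPM in control, siRNA A and siRNA B. ARRDC1 also overlaps an unnamed gene on its own strand, to which no row was matched. ARRDC1-AS1 passed the test in none of the comparisons, with log2 differences of −0.35 under siRNA A (limma, adjusted p = 0.138), −0.16 under siRNA B (limma, adjusted p = 0.537) and −0.19 between the siRNAs (limma, adjusted p = 0.461).

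ARRDC4 (ENSG00000140450.7) lies on the plus strand at chr15:98503933-98517063 (GRCh37) and overlaps no other annotated gene. It was the lowest of the measured members, at 9.17, 5.65 and 10.3 scaled CPM in control, while libraries labelled siRNA A held 6.38, 6.50 and 7.13. In those labelled siRNA B it stood at 11.9, 10.8 and 9.38. Both labelled groups overlapped control, whose replicate 2 was the lowest value of all. The smallest number of reads behind any of these member values was 86, for ARRDC4 in replicate 2 labelled siRNA A.

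The control mean was 8.38 ± 2.43, the siRNA A mean 6.67 ± 0.401 and the siRNA B mean 10.7 ± 1.24 (SD, n = 3 each). The log2 difference from control was −0.26 (SE 0.18) under siRNA A and 0.35 (SE 0.18) under siRNA B, of which neither was called. Without control replicate 2 the siRNA A difference was −0.49 and was called, as was the value of −0.58 with totals alone.

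ARRDC2 (ENSG00000105643.4) lies on the plus strand at chr19:18111941-18124911 (GRCh37) and overlaps an unnamed gene on the other strand, to which no row was matched. On the TMM scale it had the smallest difference from control of the measured members with siRNA B. The control libraries held 20.9, 18.98 and 20.1 scaled CPM, those labelled siRNA A held 23.4, 28.9 and 22.4, and those labelled siRNA B held 20.9, 20.3 and 23.5. The siRNA A libraries lay above control, whereas siRNA B overlapped it. The log2 difference was 0.30 (SE 0.12) with siRNA A and 0.10 (SE 0.12) with siRNA B. With totals alone both changed sign, to −0.057 and −0.10. ARRDC2 was not called with siRNA A, but was called without siRNA A replicate 3 (0.37) or siRNA B replicate 2 (0.30), with the size factors of DESeq2 (0.33), and in the count tests of edgeR (0.31) and DESeq2 (0.34) on the recovered reads.

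With siRNA A, 1 of the 4 measured members was called higher, ARRDC3, where 23.9% of all genes were, and 1 was called lower, ARRDC1, where 27.6% were. The groups did not overlap for 3 of the 4, against 59.5% of all genes. With siRNA B, ARRDC3 alone was called higher, where 15.6% of genes were, and no member was called lower, where 18.3% were. It was also the only member whose groups did not overlap, against 47.6% of all genes. The rule used these comparisons, and nothing is read from these counts.

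The comparison of siRNA A with siRNA B tests whether the siRNAs left the members at different levels. Its direction was not used to choose them. For ARRDC3, however, the rule asked for over 3-fold with each siRNA. The ARRDC3 values between the siRNAs, with their p-values, are therefore a description and not an unselected test. ARRDC1 was lower in libraries labelled siRNA A than in those labelled siRNA B, at 13.1 ± 1.36 against 24.1 ± 3.30 scaled CPM (SD, n = 3 each). The log2 difference was −0.82 (SE 0.13), with a 95% interval of −1.11 to −0.54 (limma, adjusted p = 6.08e-04). ARRDC4 was lower as well, at 6.67 ± 0.401 against 10.7 ± 1.24 (SD, n = 3 each), with a log2 difference of −0.60 (SE 0.18) and a 95% interval of −0.9996 to −0.20 (limma, adjusted p = 0.0225). In both genes every siRNA A library lay below every siRNA B library. Lower calls were made for 2 of the 4 members, where 19.5% of all genes were called lower, and higher calls for 0 of 4, where 17.6% were. Groups did not overlap for 2 of 4 members and for 47.6% of all genes.

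The ARRDC4 call between the siRNAs rested on single libraries. It was lost without siRNA A replicate 1 (−0.57, limma, adjusted p = 0.0616), without siRNA A replicate 2 (−0.59, adjusted p = 0.0573) and without siRNA B replicate 1 (−0.52, adjusted p = 0.0876). The ARRDC1 call held in each of these settings, with an adjusted p of at most 0.00372 over the 9 that leave out 1 library. ARRDC3 did not differ past the threshold, with a log2 difference of −0.44 (SE 0.19), an unadjusted 95% interval of −0.85 to −0.02 and an adjusted p of 0.0918 (limma). It passed the threshold without siRNA A replicate 2 (−0.61, adjusted p = 0.0303) or without siRNA B replicate 3 (−0.59, adjusted p = 0.0390). ARRDC2 did not differ past the threshold either, at 0.19 (SE 0.12) with an interval of −0.07 to 0.45 (limma, adjusted p = 0.229).

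**Figure D2:**
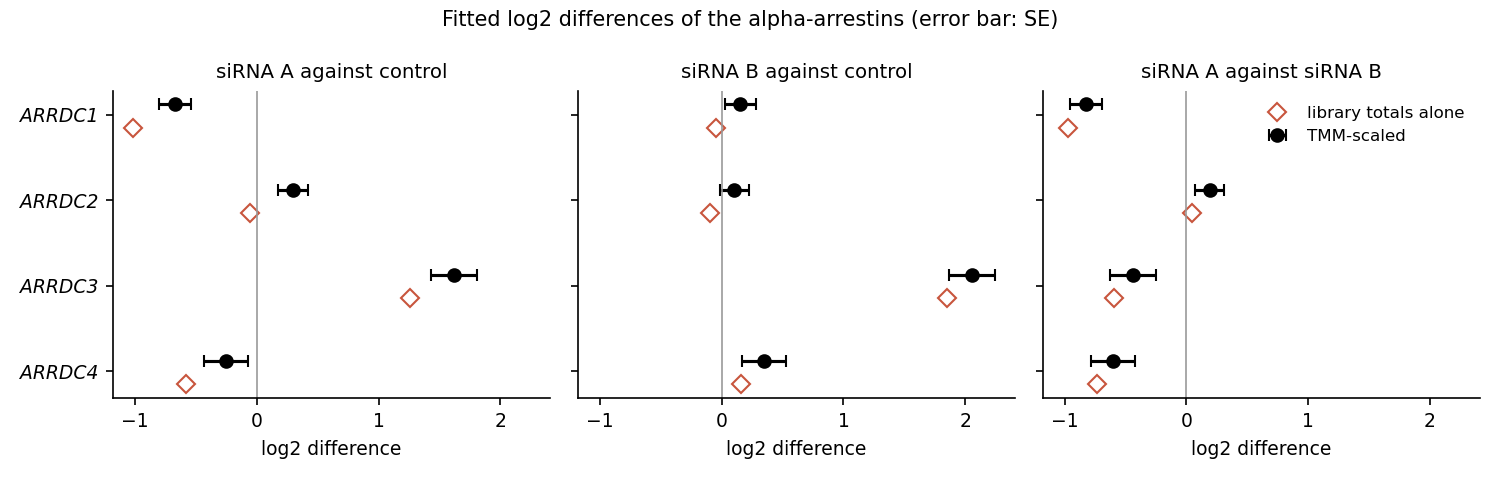
Fitted log2 difference of each measured member in the 3 comparisons. Filled circles with SE bars are on the TMM scale, and open diamonds use library totals alone. ARRDC3 lies to the right of 0 against control on both scales (1.62 and 2.05 on the TMM scale), ARRDC1 and ARRDC4 lie to the left of 0 between the siRNAs, and ARRDC2 crosses 0 against control with the scaling.

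Per kilobase of annotated exon, ARRDC3 was the most abundant measured member in each group and ARRDC4 the least. In control the levels were 7.90 ± 1.25 scaled CPM per kb for ARRDC3, 5.67 ± 0.525 for ARRDC1, 4.31 ± 0.204 for ARRDC2 and 2.06 ± 0.599 for ARRDC4 (SD, n = 3 each). With siRNA A the order below ARRDC3 (24.9 ± 5.77) was ARRDC2 (5.37 ± 0.749), ARRDC1 (3.47 ± 0.359) and ARRDC4 (1.64 ± 0.0987). With siRNA B it was ARRDC3 (33.8 ± 8.14), ARRDC1 (6.35 ± 0.871), ARRDC2 (4.66 ± 0.369) and ARRDC4 (2.63 ± 0.305). Neighbours in these orders did not overlap in any group, so ARRDC1 and ARRDC2 stood in opposite order in the libraries labelled siRNA A. The lengths are those of all annotated exons, not of the transcripts present in these cells.

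**Figure D3:**
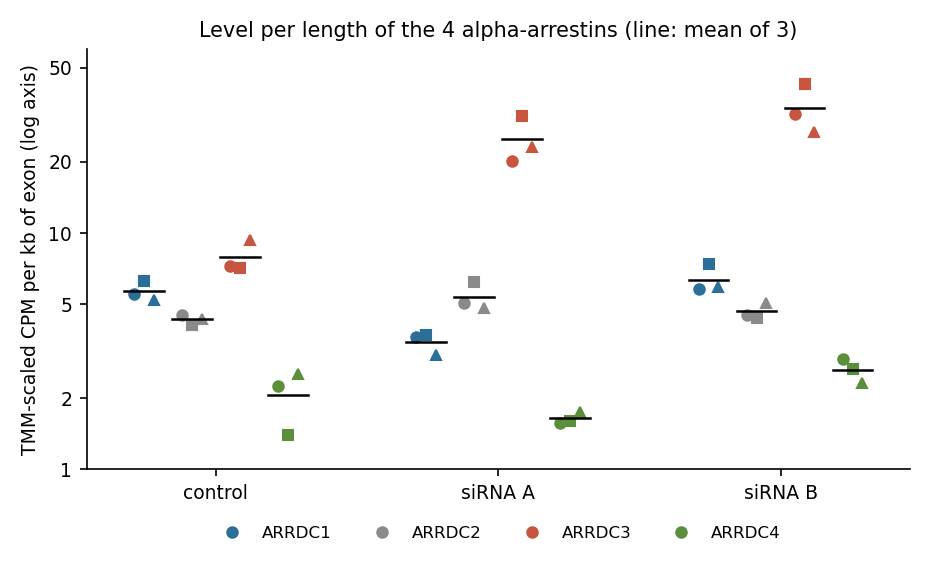
TMM-scaled CPM per kb of annotated exon of the 4 measured members by group, on a log axis. Symbols are replicates 1, 2 and 3 and lines are means of 3. ARRDC3 rises from 7.90 in control to 24.9 and 33.8 on average, ARRDC4 is lowest in each group, and ARRDC1 lies under ARRDC2 with siRNA A only.

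Ratios between members within a library do not depend on scaling. ARRDC3 held 41.4%, 42.4% and 48.1% of the reads of the 4 members in control. It held 69.9%, 76.0% and 73.7% with siRNA A and 74.4%, 78.3% and 70.7% with siRNA B. As an example of the counting error, the 95% Wilson interval of the 48.1% share was 46.0% to 50.2%. The higher shares follow from the choice of ARRDC3 and are no test. The other 3 members together stood at 49.8 ± 1.40, 44.7 ± 4.27 and 56.3 ± 2.32 scaled CPM in control, siRNA A and siRNA B (SD, n = 3 each).

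The ratio of ARRDC1 reads to ARRDC2 reads was 1.01, 1.25 and 0.983 in control and 1.05, 1.37 and 0.9497 with siRNA B, but 0.587, 0.487 and 0.517 with siRNA A. The siRNA A libraries thus lay apart from both other groups in this ratio without any scaling between libraries. The ratio of ARRDC4 to ARRDC2 averaged 0.416 ± 0.109 in control libraries, 0.272 ± 0.0465 in siRNA A libraries and 0.499 ± 0.0888 in siRNA B libraries (SD, n = 3 each).

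The other genes of these pathways were followed in 8 lists with 84 tested genes. With siRNA A, 31 were called higher and 18 lower. With siRNA B, 23 were called higher and 14 lower, and 20 were higher and 9 lower with both. The split depended strongly on scaling. With totals alone it was 13 higher and 33 lower for siRNA A and 11 higher and 26 lower for siRNA B, and over all genes it turned from 3314 higher and 3831 lower to 1257 and 6532 for siRNA A and from 2172 and 2547 to 958 and 4127 for siRNA B. Over all genes 23.9% were called higher and 27.6% lower with siRNA A, and 15.6% higher and 18.3% lower with siRNA B. The share of all genes called alike with both siRNAs was not counted, and both comparisons share the same controls. Nothing is therefore read from the count of listed genes called with both. Directions below are on the TMM scale, and a gene that loses its call with totals alone is named as such. The lists were drawn up with earlier results of these data known. Genes were named from them mainly because they were called, so their p-values describe the fit and are no independent test.

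Among relatives with the arrestin fold, 5 of 8 were tested, with a median log2 difference of 0.07 for siRNA A and 0.07 for siRNA B. ARRB1, the receptor adaptor beta-arrestin 1, was lower with both siRNAs, by −0.52 with siRNA A (limma, adjusted p = 0.0267) and −0.73 with siRNA B (limma, adjusted p = 0.00781). It stood at 13.2 ± 2.65, 8.82 ± 1.33 and 7.55 ± 1.69 scaled CPM in control, siRNA A and siRNA B (SD, n = 3 each). With siRNA A it was no longer called when control replicate 2 (−0.39) or 3 (−0.56) was left out, or siRNA A replicate 1 (−0.46) or 3 (−0.48). VPS26A, a retromer subunit named after its value was seen, was called higher with siRNA A at 0.43, a call lost with totals alone (0.069). ARRB2 and VPS26B were called with neither siRNA. With totals alone 0 were higher and 3 lower with siRNA A, and 0 higher and 2 lower with siRNA B.

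The partner ubiquitin ligases were mixed, with all 11 tested and medians of −0.14 for siRNA A and −0.02 for siRNA B. NEDD4, which gives this ligase family its name, stood at 9.81, 12.1 and 14.5 scaled CPM in control and at 20.04, 25.1 and 23.7 with siRNA A. With siRNA B it stood at 34.1, 39.9 and 28.0. No group overlapped another. NEDD4 rose by 0.88 with siRNA A (limma, adjusted p = 8.98e-04) and 1.42 under siRNA B (limma, adjusted p = 8.38e-05). Between the siRNAs it differed by −0.54, lower under siRNA A (limma, adjusted p = 0.0217), a call lost without siRNA A replicate 1 (−0.45), siRNA B replicate 1 (−0.53) or siRNA B replicate 2 (−0.42).

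Of the other ligases and their activators, all named after their values were seen, NDFIP1 and NDFIP2 were called higher and SMURF2 lower with siRNA A. HECW1 was called higher and NEDD4L and SMURF1 lower with siRNA B. With totals alone NDFIP1 (0.23), NDFIP2 (0.14) and HECW1 (0.33) were no longer called. Single libraries decided the calls of NDFIP2 (control replicate 1, 0.43 without it, and siRNA A replicate 2, 0.44) and of HECW1 (control replicates 1 and 3, 0.45 and 0.47, and siRNA B replicate 3, 0.44). The SMURF1 call (−0.29) was lost in 7 of the 9 fits that leave out a library, at −0.30 to −0.25, and held only without control replicate 1 or siRNA A replicate 2. In this fit NEDD4 was the single gene of the list called in the same direction with both siRNAs, but this depended on the setting. SMURF2 was called lower with both in 7 of 19 alternatives, with siRNA B values of −0.31 as fitted here and, for example, −0.31 with the replicate block, −0.30 with DESeq2, −0.40 without control replicate 1, −0.31 without siRNA A replicate 2 and −0.39 without siRNA B replicate 2. With totals alone NEDD4L (−0.55 and −0.72), SMURF1 (−0.41 and −0.50) and SMURF2 (−0.93 and −0.52) were called lower with both, and the list had 1 higher and 7 lower with siRNA A and 1 higher and 4 lower with siRNA B.

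Of the ESCRT and vesicle-release genes, all 14 were tested. With siRNA A 6 were higher and 2 lower (median 0.04), and with siRNA B 5 were higher and 1 lower (median 0.26). With totals alone the split turned, to 2 higher and 7 lower with siRNA A and 2 higher and 5 lower with siRNA B. STAM, which binds ubiquitinated cargo on endosomes, stood at 31.0 ± 4.74, 86.7 ± 7.99 and 62.4 ± 13.3 scaled CPM in control, siRNA A and siRNA B (SD, n = 3 each). It rose by 1.46 under siRNA A (limma, adjusted p = 2.61e-05) and 0.98 under siRNA B (limma, adjusted p = 6.81e-04). VPS4B, an ATPase that takes ESCRT assemblies apart, rose by 1.09 with siRNA A (limma, adjusted p = 1.99e-05) and 1.22 with siRNA B (limma, adjusted p = 1.93e-05).

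MVB12B, a subunit of ESCRT-I, went the other way, with −1.43 for siRNA A (limma, adjusted p = 9.30e-06) and −0.91 for siRNA B (limma, adjusted p = 3.29e-04). TSG101, the ESCRT-I subunit that ARRDC1 recruits, was called higher with both siRNAs, by 0.26 with siRNA A (limma, adjusted p = 0.0348) and 0.39 with siRNA B (limma, adjusted p = 0.00648). With totals alone both calls were lost and the siRNA A value changed sign (−0.11 and 0.19). The siRNA A call of TSG101 was also lost without any single control library (0.21 to 0.28), siRNA A replicate 1 (0.27) or 2 (0.21), or siRNA B replicate 1 (0.25). PDCD6IP, an ESCRT adaptor also known as ALIX, was the remaining gene called higher with both, and lost both calls with totals alone (0.27 and 0.21). With siRNA B it was also not called without any single control library (0.35 to 0.44) or without siRNA B replicate 1 (0.42) or 2 (0.31). TSG101 and PDCD6IP were named after their values were seen. STAM and ARRB1 overlap unnamed antisense genes with rows of their own.

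Of cargo and clients of the family, 9 of 11 were tested, with medians of 0.19 for siRNA A and −0.02 for siRNA B. ITGB4, the integrin chain known as an ARRDC3 cargo, stood at 115, 206 and 160 scaled CPM in control. It stood at 70.5, 102 and 81.2 with siRNA A and at 77.3, 122 and 78.2 with siRNA B. It was lower than control by −0.89 with siRNA A (limma, adjusted p = 0.00593) and −0.78 under siRNA B (limma, adjusted p = 0.0192). The siRNA B group overlapped control. Its call did not hold when control replicate 2 (−0.60) or 3 (−0.78) was left out, nor in the absence of siRNA B replicate 1 (−0.67) or 3 (−0.67). ITGB4 overlaps GALK1 on the other strand.

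Other cargo was called with a single siRNA, and these genes are named after their values were seen. The glucose transporter gene SLC2A1, a known TXNIP cargo, the iron transporter gene SLC11A2 and YAP1 were higher and NOTCH1 lower with siRNA A, and the insulin receptor gene INSR was higher with siRNA B. With totals alone SLC11A2 (−0.011) and INSR (0.28) were no longer called, and SLC11A2 was not called without control replicate 1 (0.30) or 2 (0.33) or siRNA A replicate 3 (0.32). YAP1, whose product binds ARRDC proteins through WW domains, differed by 1.17 with siRNA A (limma, adjusted p = 2.23e-05) and −0.08 with siRNA B (limma, adjusted p = 0.639). Between the siRNAs the YAP1 difference was 1.25 (limma, adjusted p = 3.77e-05).

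Of the MondoA and ChREBP factors and targets, 11 of 12 were tested. With siRNA A 4 were higher and 4 lower (median −0.01), and with siRNA B 3 were higher and 4 lower (median −0.38). With totals alone the counts were 1 higher and 4 lower and then 2 higher and 6 lower. MXD1, a repressor of the MAX network, rose by 0.90 with siRNA A (limma, adjusted p = 4.27e-04) and 0.90 with siRNA B (limma, adjusted p = 8.49e-04). MXD1 overlaps SNRNP27 on its own strand, a gene with its own row. KLF10, a transcription factor gene induced by glucose through ChREBP, rose by 0.56 under siRNA A (limma, adjusted p = 0.0120) and 0.73 under siRNA B (limma, adjusted p = 0.00449). The KLF10 call with siRNA A was lost with totals alone (0.19) and without control replicate 1 (0.41) or siRNA A replicate 2 (0.45).

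PFKFB3, which makes the activator of phosphofructokinase, was lower with both siRNAs, at −0.45 under siRNA A (limma, adjusted p = 0.00612) and −0.59 under siRNA B (limma, adjusted p = 0.00232). Hexokinase 2, HK2, differed in opposite directions. It stood at 42.2, 51.6 and 49.5 scaled CPM in control, at 56.0, 69.3 and 77.7 with siRNA A and at 33.0, 31.7 and 30.3 with siRNA B. The 3 groups did not overlap. Its difference from control was 0.49 with siRNA A (limma, adjusted p = 0.00788), which lost its call with totals alone (0.12), and −0.57 with siRNA B (limma, adjusted p = 0.00521), and between the siRNAs it was 1.06 (limma, adjusted p = 1.20e-04). MLXIP, the MondoA gene, was called lower with both siRNAs, at −0.32 and −0.58. It was not called under siRNA A once control replicate 2 (−0.28) or siRNA A replicate 1 (−0.28) was left out. Its partner gene MLX was called higher with both, at 0.28 and 0.32. Both MLX calls were lost with totals alone, where the siRNA A value changed sign (−0.08), and with siRNA B also when control replicate 3 (0.30) or siRNA B replicate 1 (0.27) was left out. MLXIP and MLX were named after their values were seen.

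Of the thioredoxin list, 15 of 17 genes were tested. With siRNA A 8 were higher and 4 lower, and with siRNA B 7 were higher and 3 lower, with medians of 0.58 and 0.33. With totals alone 6 were higher and 4 lower with siRNA A and 3 higher and 4 lower with siRNA B. PRDX1, a peroxidase that is recharged by thioredoxin, rose by 1.08 with siRNA A (limma, adjusted p = 2.33e-04) and 0.59 with siRNA B (limma, adjusted p = 0.0147). The siRNA B call was lost with totals alone (0.38) and without control replicate 3 (0.49), siRNA B replicate 1 (0.52) or siRNA B replicate 3 (0.50). PRDX1 overlaps MMACHC on the other strand. MAP3K5, the kinase ASK1 that thioredoxin holds inactive, was lower with both siRNAs, at −1.14 under siRNA A (limma, adjusted p = 9.64e-05) and −0.92 under siRNA B (limma, adjusted p = 7.86e-04).

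DDIT4, whose product REDD1 binds TXNIP and restrains mTORC1, rose by 0.58 with siRNA A (limma, adjusted p = 0.0262) and 0.82 with siRNA B (limma, adjusted p = 0.00750). The siRNA A call was lost with totals alone (0.23) and without control replicate 2 (0.37), control replicate 3 (0.62), siRNA A replicate 1 (0.52) or siRNA A replicate 2 (0.47). DDIT4 and MAP3K5 are clients rather than enzymes of the thioredoxin cycle. TXN, the thioredoxin gene itself, was higher by 0.89 with siRNA A (limma, adjusted p = 2.37e-04) and 0.40 under siRNA B (limma, adjusted p = 0.0346). The siRNA B call of TXN, a gene named after its values were seen, was lost with totals alone (0.19) and without control replicate 2 (0.31), control replicate 3 (0.37), siRNA B replicate 1 (0.35) or siRNA B replicate 3 (0.33).

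Among subunits of AMPK, the kinase that marks TXNIP for degradation, 6 of 7 were tested. PRKAA2, PRKAB1 and PRKAB2 were higher with both siRNAs, and PRKAG2, named after its value was seen, was lower with siRNA A. PRKAB2 rose by 0.62 under siRNA A (limma, adjusted p = 0.00128) and 0.74 under siRNA B (limma, adjusted p = 7.81e-04). PRKAA2 rose by 0.70 under siRNA A (limma, adjusted p = 0.00565) and 0.67 under siRNA B (limma, adjusted p = 0.0118). PRKAB1 rose by 0.54 under siRNA A (limma, adjusted p = 0.00115) and 0.40 under siRNA B (limma, adjusted p = 0.0107). With totals alone all 3 siRNA A calls and the siRNA B call of PRKAB1 were lost, at 0.26 for PRKAB2, 0.38 for PRKAA2, and 0.19 and 0.20 for PRKAB1.

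Of the glucocorticoid and FOXO genes, 13 of 15 were tested, with 3 higher and 3 lower with siRNA A (median 0.16) and 2 higher and 2 lower with siRNA B (median 0.02). TSC22D3, the glucocorticoid-induced gene of GILZ, stood at 4.60 ± 1.28, 8.93 ± 1.71 and 12.3 ± 0.799 scaled CPM in control, siRNA A and siRNA B (SD, n = 3 each). It rose by 0.84 under siRNA A (limma, adjusted p = 0.00234) and 1.27 under siRNA B (limma, adjusted p = 3.26e-04). CDKN1B, the cell cycle inhibitor p27 and a FOXO target, rose by 0.54 under siRNA A (limma, adjusted p = 0.00441) and 0.47 under siRNA B (limma, adjusted p = 0.0146). Both CDKN1B calls were lost with totals alone (0.18 and 0.27), and with siRNA B also when control replicate 2 (0.35) or siRNA B replicate 1 (0.45) was left out. CDKN1B overlaps GPR19. KLF15, a glucocorticoid target, was called lower with both siRNAs on very few reads, 23, 26 and 25 in control, 3, 3 and 1 under siRNA A and 6, 7 and 11 under siRNA B, so no fold is given. With totals alone this list had 1 higher and 4 lower with siRNA A and 1 higher and 2 lower with siRNA B.

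**Figure D4:**
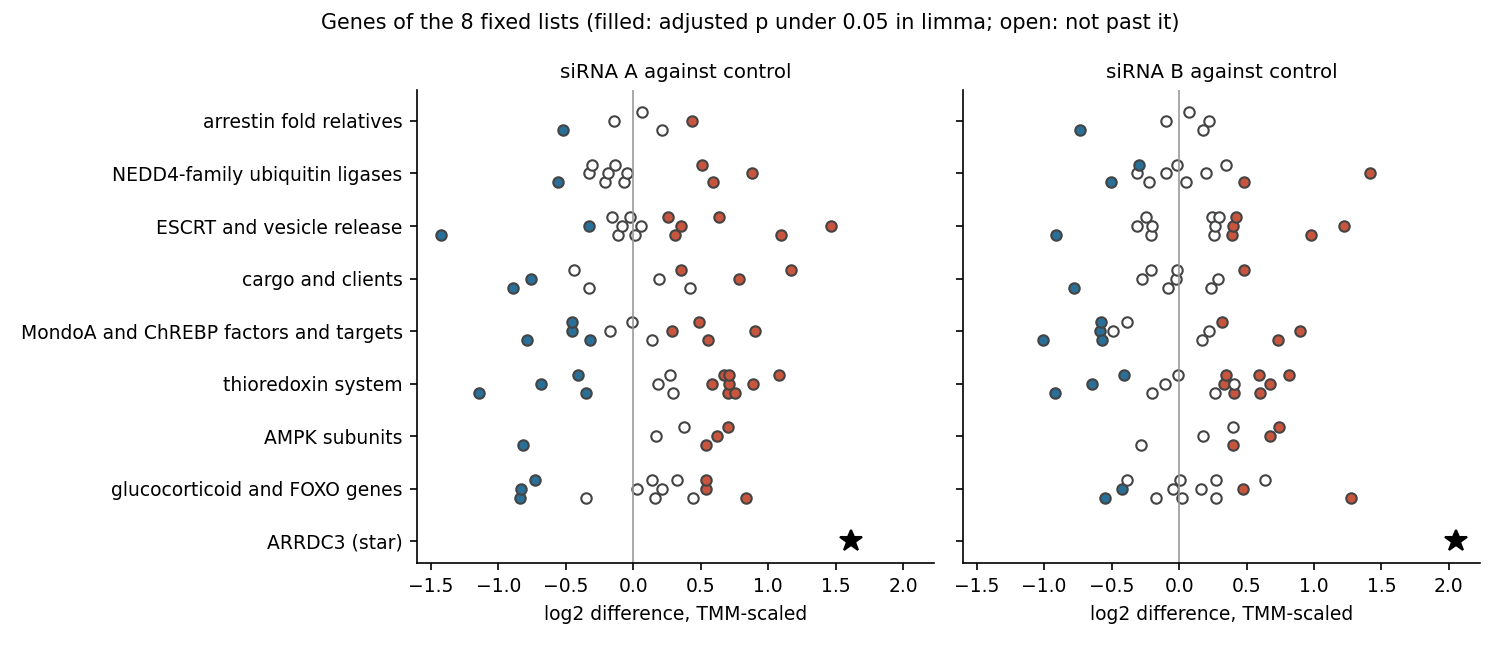
Log2 difference from control of each tested gene of the 8 lists, with siRNA A in the left panel and siRNA B in the right one, on the TMM scale. Filled points passed limma at an adjusted p under 0.05 (red higher, blue lower) and open points did not. The star is ARRDC3 at 1.62 and 2.05, to the right of every listed gene, the nearest of which are STAM at 1.46 with siRNA A and NEDD4 at 1.42 with siRNA B.

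Genes with a profile like that of ARRDC3 over the 9 libraries were ranked by the root mean square difference of centred log2 values, among 9068 genes with a mean of at least 10 scaled CPM. The nearest 5 were FTH1 (0.229), PMAIP1 (0.275), SMIM15 (0.281), BEST1 (0.282) and HOXA5 (0.307), where the median gene stood at 0.929. FTH1, the heavy chain of the iron store ferritin, stood 1.41 above control under siRNA A and 1.64 above it under siRNA B, on the log2 scale. For PMAIP1, the gene of the pro-apoptotic BCL2-family protein NOXA, these values were 1.56 and 1.51. For SMIM15, a small membrane protein gene, they were 2.004 and 2.02.

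HOXA5, a homeobox gene, stood 1.495 above control under siRNA A and 1.61 above it under siRNA B, and BEST1, a chloride channel gene, by 1.34 and 1.57. BEST1 overlaps FTH1 on the other strand and its reads are uncertain for that reason. SMIM15 and HOXA5 overlap other genes as well. As these genes were picked for likeness, their differences carry no test.

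**Figure D5:**
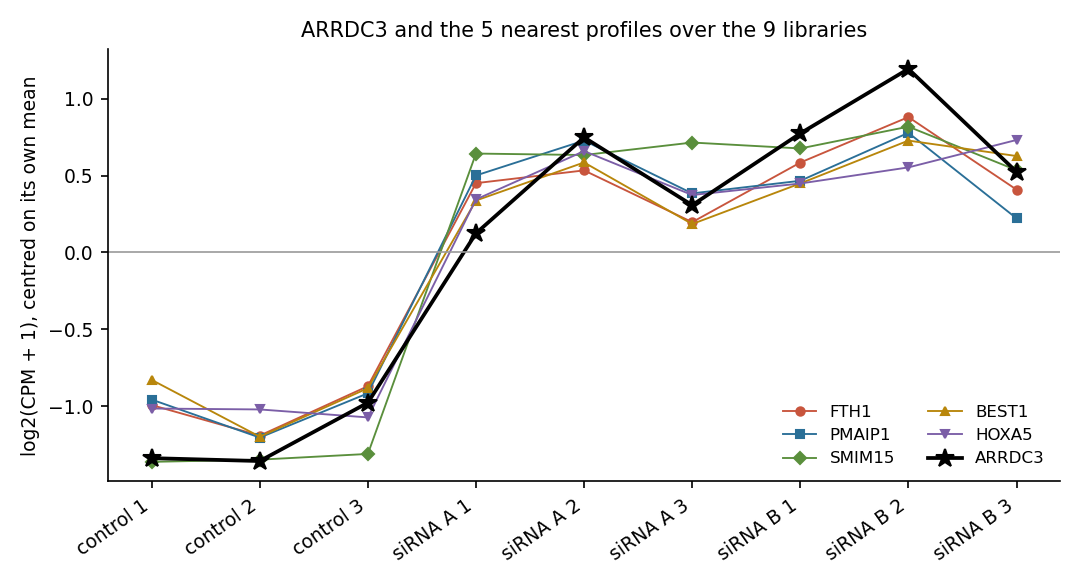
Log2(scaled CPM + 1) of ARRDC3 (black stars) and of the 5 genes with the nearest profiles, each centred on its own mean over the 9 libraries. All 6 lie below 0 in the 3 control libraries and above 0 in the 6 labelled ones, with ARRDC3 highest of the 6 in replicates 1 and 2 labelled siRNA B.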

How the data were processed

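RNA-seq was analysed from 9 libraries of HCT116 cells, 3 per group, made from oligo-dT purified RNA and read as single ends of 50 bases. The authors deposited a table of CPM values, reads per gene divided by the library total. The submitters' processing notes name TopHat2 and HTSeq with GRCh37 (hg19), and the annotation release and strand setting were not given in the sources used here. All values were whole multiples of 1 read (within 0.01 read, 100% of values), so reads were recovered. The recovered totals were 15566530 to 23277549, and 3 reads stood for 0.129 to 0.193 CPM. Intervals and this floor cover counting error only. Identifiers were matched without version to GENCODE annotation lifted to GRCh37, with 14871 of 15354 matched. Upstream windows came from RefSeq (GRCh38.p14) and were placed on GRCh37 by exact match on the strand given by RefSeq. Those of TXNIP were searched on the minus strand only, where no match was found. The gene is annotated on the plus strand of GRCh37, which was not searched.

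CPM were scaled by TMM (edgeR 4.0.16), and a gene was kept if 3 or more libraries reached 1 CPM (13893, or 90.5%). Values of log2(CPM + 1) were fitted with limma 3.58.1 (trend, R 4.3.3) over all 9 libraries, with Benjamini-Hochberg adjustment per comparison. The count tests of edgeR and DESeq2 1.42.0 on the recovered reads were alternatives. The fit was tested on simulated counts with 200 changed genes, raised and lowered in equal number. These are far fewer than were called here, so the simulation does not test the scaling between groups. Summaries and figures were made in Python (3.11.15; pandas 2.3.3, numpy 2.4.6 and matplotlib 3.10.9). No columns of other samples were present.

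Members and lists were chosen with earlier results of these data known. Named from each list were up to 3 genes called alike with both siRNAs, largest first, otherwise up to 2 called with either, plus up to 2 called in opposite directions. Also named were the members, SNHG5, the cell type markers and the 5 profiles nearest to ARRDC3. The same rule for TXNIP could not be applied. Genes behind small counts and genes with a known tie to a member were named as well, after their values were seen. The sources give the replicates as biological. Within groups the libraries differed by more than sampling noise. Deviations from the group means were correlated between same-numbered libraries. For control and siRNA A this gave r = 0.65, 0.41 and 0.13. The values were r = 0.17, 0.44 and −0.39 for control and siRNA B, and r = 0.20, 0.44 and 0.019 for siRNA A and siRNA B. Libraries of different number were not compared in this way, so whether the numbers pair was not settled. The main fit used no pairing.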

Additional observations from a re-analysis of the deposited data

Results flagged for a closer look

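Members whose difference from control was not the same for both siRNAs, by the limma test between them, were ARRDC1 at a log2 value of −0.82 for siRNA A against siRNA B and ARRDC4 at −0.60. ARRDC1 stood at 13.1 scaled CPM with siRNA A and 24.1 with siRNA B, with control at 21.5. ARRDC4 stood at 6.67 and 10.7 with control at 8.38. Their values by library and the settings that change the ARRDC4 call are given above.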

How the results depend on the processing

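With library totals alone, the log2 differences from control with siRNA A became −1.02 for ARRDC1, −0.057 for ARRDC2, 1.25 for ARRDC3 and −0.58 for ARRDC4, and with siRNA B −0.050 for ARRDC1 and −0.10 for ARRDC2. Between the siRNAs, ARRDC3 then passed the threshold (−0.59, limma, adjusted p = 0.0161), SNHG5 no longer did (0.31, limma, adjusted p = 0.0938), and the split of calls over all genes went from 2452 higher and 2703 lower to 1415 and 3750. Within the lists it went from 18 higher and 12 lower to 5 and 18. By construction this setting drops the composition correction. The replicate block, fitted for all comparisons, made the ARRDC3 difference between the siRNAs pass (−0.44, limma, adjusted p = 0.0400), although pairing was not settled. It changed no other call of a member in any comparison, and calls over all genes rose from 7145 to 8093 for siRNA A, from 4719 to 5791 for siRNA B and from 5155 to 6229 between the siRNAs.

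Leaving out 1 library at a time gave 5936 to 7671, 3399 to 4933 and 3996 to 5106 calls in the same order. ARRDC3 ranged from 1.44 to 1.75 with siRNA A, from 1.87 to 2.21 with siRNA B and from −0.61 to −0.26 between the siRNAs. Between the siRNAs ARRDC4 ranged from −0.68 to −0.52. The edgeR and DESeq2 fits called 7160 and 7251, 4780 and 5047, and 5105 and 5340 genes. The cause of the changes was not tested. Among the members ARRDC4 had the fewest reads, down to 86 in a library.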
